A study of Mus musculus with 12 samples.

Results

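The genes described here are 10 genes of brain endothelium and the blood-brain barrier: Cldn5, Ocln, Slc2a1, Slco1c1, Abcb1a, Pecam1, Cdh5, Flt1, Kdr and Tek. The rule names them for their known roles and uses no measured value. The choice of these genes was made with earlier results of these data known. They are 10 of the 50563 genes in the count table, and all 10 passed the filter on low counts, which left 15688 genes to be tested. RNA-Seq was measured in brain cortex of 12 E4FAD mice with 1 library per mouse, to ask what DPAn-6, an n-6 form of docosapentaenoic acid, does in aged mice with amyloid pathology. Every mouse had the genotype APOE4+/+, 5FAD-/+, which means human APOE4 in place of mouse Apoe, with transgenes of familial Alzheimer's disease that produce amyloid. Vehicle was gavaged to the 7 CTRL mice, 2 of them 12 months and 5 of them 14 months old, and DPAn-6 was gavaged daily to the 5 mice of the DPAn-6 group, 2 of them 12 months and 3 of them 14 months old. Antioxidants were given to both groups, and both held females and males, although sex was not labelled mouse by mouse. No group without the transgenes or with another APOE allele entered the comparison, so the values describe treatment within E4FAD mice alone. The brains were perfused with buffer before dissection.

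Brain endothelial cells line the vessels of the cortex and form the blood-brain barrier. Tight junctions seal the cells to each other, few vesicles cross them, and carriers and pumps decide which nutrients and drugs pass. VEGF and angiopoietin receptors on the same cells control vessel growth and stability, and Wnt signals from neighbouring cells keep the barrier program on. Endothelium is a small part of cortex tissue, and in bulk RNA fewer endothelial cells and less RNA per endothelial cell cannot be told apart.

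None of the 10 genes passed the test between the groups at an adjusted p of 0.05. Flt1, the decoy VEGF receptor, had the largest negative log2 fold change in DPAn-6 mice, −0.19, and Cldn5, the main claudin of the barrier, the largest positive one, 0.17. The Cldn5 value rested on 1 CTRL mouse, CTRL 3. Without that mouse it was 0.04, below the 0.13 of Tek. Tek, the angiopoietin receptor, was the member with the smallest exact permutation p, with all 5 DPAn-6 mice above the CTRL mean. By edgeR the smallest unadjusted p was that of Flt1, 0.0234, beside 0.0478 for Tek. Of the 10 genes, 6 had a lower and 4 a higher fitted level in DPAn-6, where 51.3% of all genes tested were lower. Their median log2 fold change was −0.08, beside −0.0047 over all genes tested.

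Promoter stretches of 3 genes are shown first, because Flt1, Tek and Cldn5 are the members whose values stand out below. Each is the run of 250 bases before the transcription start, written 5′ to 3′ on the strand of the gene, from RefSeq on GRCm38.p6. Capitals mark GGAA or its reverse complement TTCC, the core that ETS factors, a family with many endothelial members, bind.
Cldn5 promoter, chr16:18776597-18776846, plus strand: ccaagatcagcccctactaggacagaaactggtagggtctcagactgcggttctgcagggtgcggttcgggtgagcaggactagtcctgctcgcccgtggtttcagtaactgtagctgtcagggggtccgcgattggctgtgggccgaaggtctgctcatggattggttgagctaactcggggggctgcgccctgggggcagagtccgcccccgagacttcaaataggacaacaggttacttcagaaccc
Flt1 promoter, chr5:147726012-147726261, minus strand: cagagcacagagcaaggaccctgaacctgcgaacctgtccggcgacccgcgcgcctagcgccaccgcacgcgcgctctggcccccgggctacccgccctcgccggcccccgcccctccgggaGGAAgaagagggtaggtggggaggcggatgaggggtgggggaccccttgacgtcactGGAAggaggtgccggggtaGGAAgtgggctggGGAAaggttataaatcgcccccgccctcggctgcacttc
Tek promoter, chr4:94739039-94739288, plus strand: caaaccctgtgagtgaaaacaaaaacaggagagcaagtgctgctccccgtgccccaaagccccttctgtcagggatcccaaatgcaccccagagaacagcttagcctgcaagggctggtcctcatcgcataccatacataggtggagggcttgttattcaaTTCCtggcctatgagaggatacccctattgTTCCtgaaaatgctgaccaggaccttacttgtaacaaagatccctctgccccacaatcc
GGAA or TTCC occurred 4 times in the Flt1 run, 2 times in the Tek run and 0 times in the Cldn5 run. Among the 32851 promoter runs of this length in the same RefSeq table, 93.4% held at least 1 match, and the median was 3 matches. RefSeq promoters were matched for 8 of the 10 genes, all but Pecam1 and Cdh5. Slco1c1 had 8 matches, Abcb1a 5, Kdr 4 and Slc2a1 0, and the 2 starts listed for Ocln had 2 and 1. The Abcb1a run lies before a RefSeq start that is 92986 bases upstream of the GENCODE start of the gene given below. The core of SOX factors, AACAAT or its reverse complement ATTGTT, was found 1 time in the Tek run and in none of the other runs of these genes, beside 9.42% of all runs. These matches describe letters and say nothing of binding. The Flt1 run was rich in G and C (70.4%, beside a median of 52.4% over all runs), those of Cldn5 and Tek less so (59.6% and 51.2%).

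Total counts per library were 15339098 to 19500154 in CTRL and 15208803 to 26520251 in DPAn-6, and the 10 genes had from 121 to 2921 counts per mouse. Levels are given as log2 CPM, the log2 of counts scaled to CPM with 0.5 added beforehand. Differences between groups were tested by edgeR's quasi-likelihood method over all 15688 genes with Benjamini-Hochberg adjustment, which called 243 genes (64 up, 179 down), 1.55% of those tested, and 14.5% had an unadjusted p below 0.05. The CTRL 3 library stood apart: its deviations from the mean of all libraries followed transcript length and GC content, which accounted for 35.7% of their variance, against 0.453% to 13.9% in the other libraries. Values without that library are given beside a gene where leaving it out moved the log2 fold change by over 1.5 times or changed a call. As for the tissue label, the cortical excitatory neuron list summed to 2064 to 2685 CPM in CTRL and 2341 to 2506 in DPAn-6. No reference tissue was set beside these sums, so they cannot verify the label or exclude other tissue. Choroid plexus markers reached 1763 CPM in CTRL, where their median was 35.6 CPM.

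Before the treatment comparison, the levels themselves were ordered. Per kilobase of exon, Slc2a1 was the most abundant of the 10, with 37.5 ± 5.36 CPM per kb (SD, n = 12), followed by Cldn5 with 20.4 ± 4.67. Slco1c1 (9.79 ± 0.927), Flt1 (9.49 ± 0.881) and Abcb1a (7.25 ± 0.479) formed the middle of the order in CPM per kb. Cdh5 (6.01 ± 0.556), Pecam1 (4.77 ± 0.315) and Tek (4.24 ± 0.367) came next, and Kdr (2.34 ± 0.296) and Ocln (2.19 ± 0.246) were lowest. The ranges over mice did not overlap between Slc2a1 and Cldn5, between Flt1 and Abcb1a, or between Tek and Kdr. The other neighbours had overlapping ranges, and within a mouse the order was least steady for Slco1c1 above Flt1 (10 of 12 mice) and Kdr above Ocln (8 of 12). The 2 main VEGF receptors therefore lay apart, since all Flt1 values were above all Kdr values in CPM per kb. Reads of the soluble and the membrane form of Flt1 are counted together, and exons of all transcripts set the length used here.

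**Figure D1:**
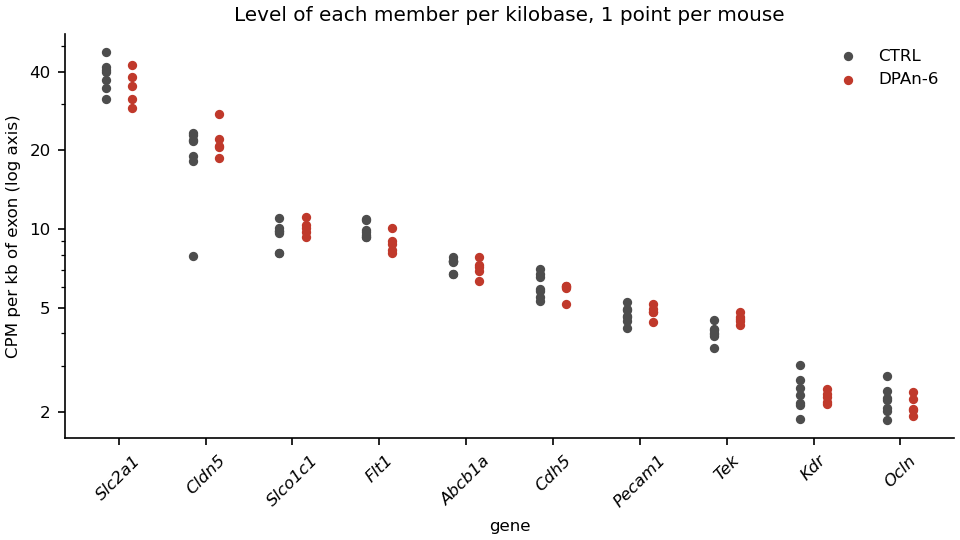
Level of each of the 10 genes in CPM per kilobase of exon (log axis), with 1 point per mouse, CTRL in grey and DPAn-6 in red. Slc2a1 lies above all others in every mouse, and the low grey Cldn5 point is CTRL 3.

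Cldn5 (ENSMUSG00000041378, chromosome 16, 18776847 to 18778262 on the plus strand) encodes claudin-5, the most abundant tight junction protein of brain endothelium, in a gene with a single exon. The 7 CTRL mice had a lowest value of 3.48 log2 CPM, a median of 4.94 and a highest value of 5.05. DPAn-6 mice had 4.88, 4.98, 4.87, 4.73 and 5.29 log2 CPM. The groups overlapped, and the low end of the CTRL range was 1 mouse, CTRL 3, since the other 6 lay between 4.70 and 5.05. The log2 fold change was 0.17 (standard error 0.19, 95% interval −0.24 to 0.58, edgeR adjusted p = 0.761), and the exact permutation p was 0.470. Without CTRL 3 the log2 fold change was 0.04, with an edgeR adjusted p of 0.829. The Cldn5 transcript is short and GC-rich, at 1416 bases and 60.5% GC, which puts it at the 10.9th percentile of tested genes by length and the 96.2th by GC. In CTRL 3 the deviations of all genes correlated at r = −0.572 with GC across genes. After the length and GC trend of each library was removed, Cldn5 had 4.14 log2 CPM in CTRL 3 and 4.72 to 4.90 in the other CTRL mice, so CTRL 3 was still the lowest.

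Ocln (ENSMUSG00000021638, chromosome 13, 100496507 to 100552718, minus strand) encodes occludin, a second membrane protein of tight junctions. CTRL mice had 2.99 at the lowest, 3.23 at the median and 3.54 log2 CPM at the highest, and the DPAn-6 mice had 3.25, 3.11, 3.33, 3.12 and 3.03. All 5 DPAn-6 values lay inside the CTRL range. The log2 fold change was −0.09 (standard error 0.10, 95% interval −0.31 to 0.13, edgeR adjusted p = 0.763). As a percent difference of DPAn-6 from CTRL, the intervals ran from −15.4% to 49.4% for Cldn5 and from −19.5% to 9.52% for Ocln.

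Slc2a1 (ENSMUSG00000028645, chromosome 4, 119108711 to 119137983, plus strand) encodes GLUT1, the glucose carrier of the barrier, which astrocytes also express. Slc2a1 values in CTRL were 6.79 log2 CPM at the lowest, 7.13 at the median and 7.38 at the highest. In DPAn-6 they were 7.22, 6.96, 7.06, 6.67 and 6.78, with 2 mice under the whole CTRL range and 2 others between its lowest value and its mean. The log2 fold change of −0.17 (standard error 0.11, 95% interval −0.39 to 0.06) did not pass (edgeR adjusted p = 0.514, exact permutation p = 0.239). Without CTRL 3 it was −0.21, with an edgeR unadjusted p of 0.0409 and 0.196 after adjustment.

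Slco1c1 (ENSMUSG00000030235, chromosome 6, 141524368 to 141570177, plus strand) encodes OATP1C1, the thyroxine carrier of the barrier. It ran from 5.40 to 5.84 log2 CPM in CTRL (median 5.68) and was 5.59, 5.75, 5.71, 5.85 and 5.66 in DPAn-6. The DPAn-6 values lay in the upper part of the CTRL range, with 1 just above the highest of CTRL, and CTRL 3 and CTRL 7 were below all of them. The fitted Slco1c1 log2 fold change was 0.06 (standard error 0.08, 95% interval −0.11 to 0.24, edgeR adjusted p = 0.801), and 0.03 without CTRL 3.

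Abcb1a (ENSMUSG00000040584, chromosome 5, 8660077 to 8748575, plus strand) encodes P-glycoprotein, the drug efflux pump on the blood side of the endothelium. CTRL values were 5.21 to 5.43 log2 CPM (median 5.37), and DPAn-6 values were 5.11, 5.42, 5.25, 5.32 and 5.30. Among DPAn-6 mice 1 was below all CTRL mice and the other 4 were within their range. The log2 fold change was −0.07 (standard error 0.07, 95% interval −0.23 to 0.08, edgeR adjusted p = 0.717). Abcb1a shares long stretches of sequence with its neighbour Abcb1b, and 553 of its exon bases overlap Gm42686 on the other strand, as 105 bases of Slc2a1 overlap Gm12868, so reads there may be split or lost. The strand setting of the counting is not given in the sources used here.

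Pecam1 and Cdh5 hold endothelial cells together and are common markers of the cell type. Pecam1 (ENSMUSG00000020717, chromosome 11, 106654217 to 106750628, minus strand) encodes the adhesion molecule CD31, and had 4.71 to 5.04 log2 CPM in CTRL (median 4.86) and 4.92, 4.91, 5.01, 4.79 and 4.95 in DPAn-6. It was the member closest to no difference, with a log2 fold change of 0.01 (standard error 0.08, 95% interval −0.15 to 0.18, edgeR adjusted p = 0.962). Cdh5 (ENSMUSG00000031871, chromosome 8, 104101625 to 104144511, plus strand) encodes VE-cadherin of adherens junctions, and had 4.48 to 4.89 log2 CPM in CTRL (median 4.63) and 4.68, 4.65, 4.66, 4.45 and 4.68 in DPAn-6. In DPAn-6, 4 mice were almost level and the fifth was below every CTRL mouse. The Cdh5 log2 fold change was −0.08 (standard error 0.09, 95% interval −0.28 to 0.11, edgeR adjusted p = 0.748). Without CTRL 3 the log2 fold changes were 0.05 for Pecam1 and −0.04 for Cdh5, with edgeR adjusted p-values of 0.669 and 0.817. As a percent difference, the Pecam1 interval ran from −9.72% to 12.9% and the Cdh5 interval from −17.4% to 7.85%.

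Of the 3 growth factor receptors, Flt1 and Tek lay on opposite sides of zero and Kdr had the smallest difference. Flt1 (ENSMUSG00000029648, chromosome 5, 147561604 to 147726011, minus strand) encodes VEGFR1, which binds VEGF tightly and signals weakly. Flt1 in CTRL mice was lowest at 6.97, had a median of 7.04 and was highest at 7.21 log2 CPM, while DPAn-6 mice had 6.82, 7.09, 6.93, 6.89 and 6.77. Of the 5 DPAn-6 mice, 4 were below every CTRL mouse, and the fifth, DPAn-6 2, lay within the CTRL range. The fitted difference was −12.3% (log2 fold change −0.19, standard error 0.08, 95% interval −0.35 to −0.03), where edgeR gave an unadjusted p of 0.0234 and 0.251 after adjustment. The exact permutation p was 0.0303. Leaving out 1 mouse at a time gave edgeR unadjusted p-values from 0.00806 to 0.0861, below 0.05 in 9 of 12 fits. With the length and GC trend of each library removed, the log2 fold change was −0.09 and its unadjusted p 0.142, so the unadjusted call ended there.

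Tek (ENSMUSG00000006386, chromosome 4, 94739289 to 94874976, plus strand) encodes TIE2, the receptor for angiopoietins, which steady mature vessels. CTRL mice had Tek at 4.05 log2 CPM at the lowest, 4.25 at the median and 4.40 at the highest. DPAn-6 mice had 4.40, 4.34, 4.51, 4.42 and 4.44, all above the CTRL mean, and 3 of them above every CTRL mouse. The fitted difference was 11.2% (log2 fold change 0.15, standard error 0.07, 95% interval 0.0017 to 0.31), with an edgeR unadjusted p of 0.0478 (adjusted p = 0.337). The exact permutation p was 0.00884, where 0.00126 is the smallest that 792 splits into 7 and 5 allow. Leaving out 1 mouse at a time gave edgeR unadjusted p-values from 0.0211 to 0.108, below 0.05 in 3 of 12 fits, and without CTRL 3 the log2 fold change was 0.13 with an edgeR unadjusted p of 0.0534. With the length and GC trend removed the log2 fold change was 0.19, with an edgeR unadjusted p of 0.0208 (adjusted p = 0.167).

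Kdr (ENSMUSG00000062960, chromosome 5, 75932827 to 75978458, minus strand) encodes VEGFR2, the main signalling receptor for VEGF. Its CTRL values ran from 4.09 to 4.78 log2 CPM with a median of 4.39, and its DPAn-6 values were 4.31, 4.47, 4.28, 4.37 and 4.40, all inside that range. The log2 fold change was −0.08 (standard error 0.10, 95% interval −0.30 to 0.14, edgeR adjusted p = 0.794), and removing the length and GC trend brought it to −0.0051. Without CTRL 3 it was −0.12 (edgeR adjusted p = 0.435).

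**Figure D2:**
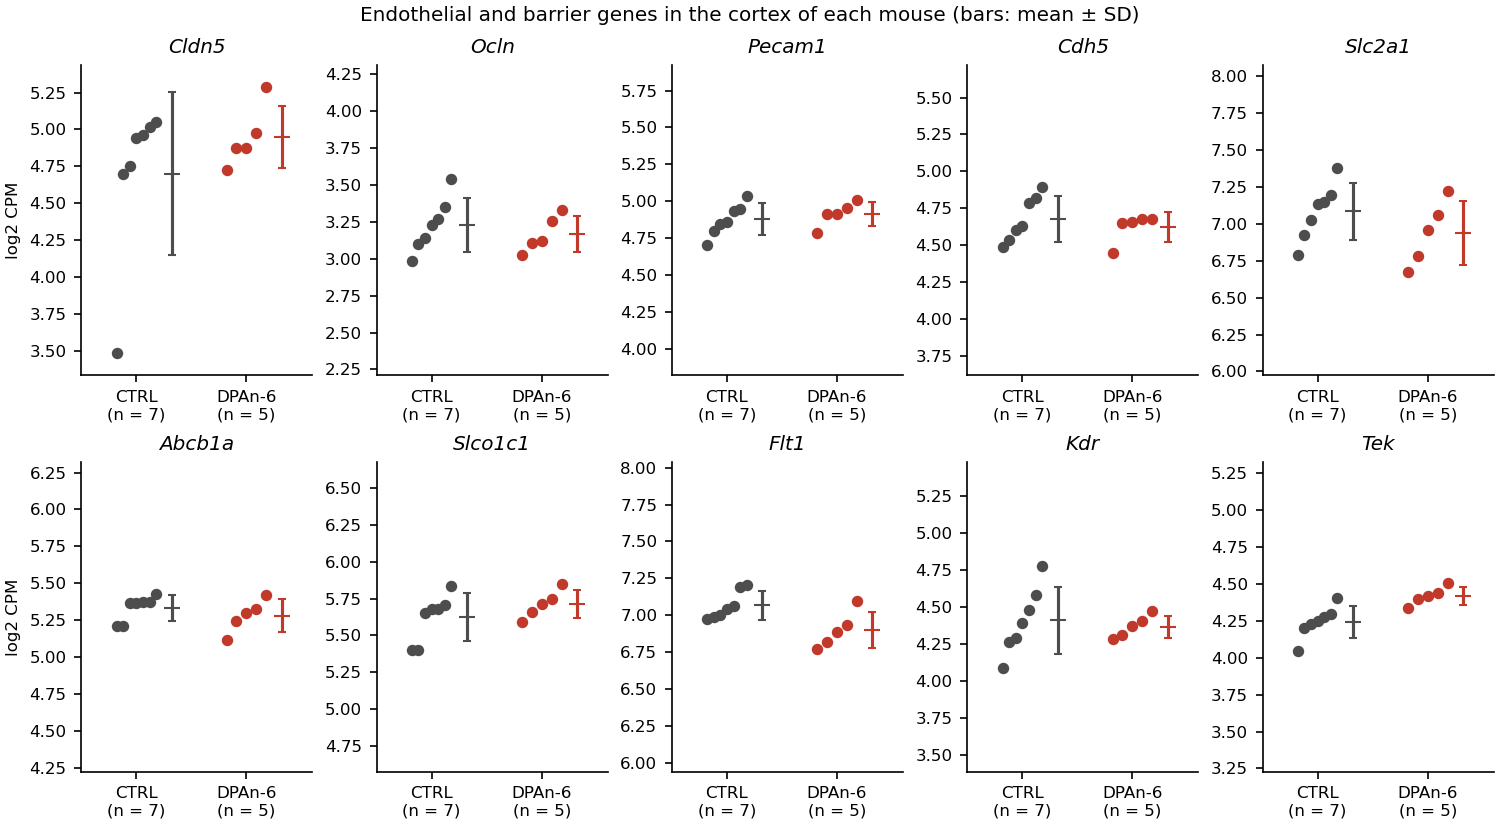
Log2 CPM of the 10 genes, 1 point per mouse, 7 CTRL in grey and 5 DPAn-6 in red, with the mean ± SD of each group at the right of its points. All panels span the same range of log2 CPM. Flt1 lies lower in 4 of 5 DPAn-6 mice than in any CTRL mouse, Tek lies above the CTRL mean in all 5, and the low Cldn5 point is CTRL 3.

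As a group, 0 of the 10 genes were called at an adjusted p below 0.05, where 1.55% of all genes tested were. With unadjusted p-values 2 of 10 passed (20%), Flt1 and Tek, beside 14.5% of all genes, and their directions were opposite. DESeq2 and limma-voom also called 0 of the 10. None of the 10 separated the groups completely, beside 3.22% of all genes whose 2 groups did not overlap. The summed level of the 10 genes was 457 to 559 CPM in CTRL and 444 to 495 CPM in DPAn-6. This sum weighs the abundant genes most. The mean log2 CPM of the 10, with equal weight, was 4.93 to 5.30 in CTRL and 5.06 to 5.17 in DPAn-6. Its group means were 5.1245 in CTRL and 5.1274 in DPAn-6. No interval reached beyond −0.39 or 0.58 on the log2 scale, so differences above these sizes lie outside the 95% intervals of the 10 genes, taken singly. The exact permutation tests of the 10 genes were not adjusted for their number. Nothing in the labels says that mice came from separate litters or cages, and p-values measure the spread between these mice.

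Both groups held mice of both ages, so each gene was also tested for a treatment difference that depended on age. None of the 10 interactions was called (edgeR unadjusted p 0.132 to 0.945, adjusted p 0.905 to 0.992), and 1 gene of all those tested was, 0.00637%. Slco1c1 had the smallest of these p-values, with a log2 difference between ages of −0.28 (standard error 0.17). The largest estimate was that of Cldn5, 0.54 with a standard error of 0.41. In 14-month mice alone the Flt1 log2 fold change was −0.23 and the Tek one 0.13, and in 12-month mice alone, 2 per group, they were −0.08 and 0.20.

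**Figure D3:**
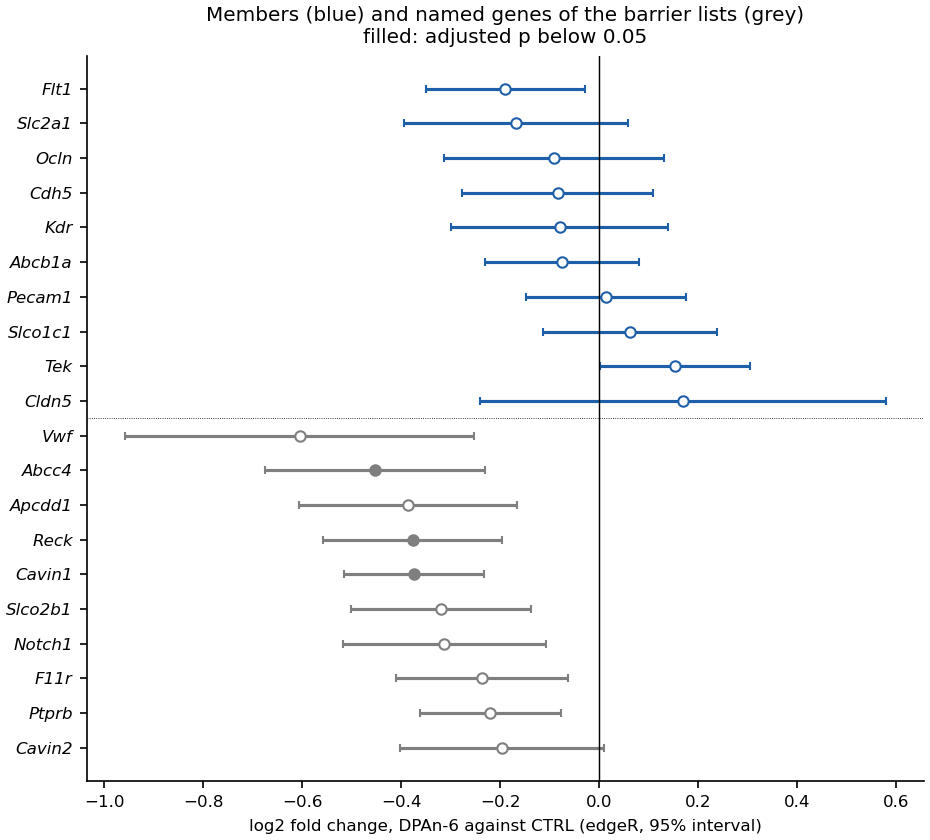
Log2 fold change of DPAn-6 against CTRL with its 95% interval from edgeR, for the 10 genes (blue) and for 10 named genes of the wider barrier lists (grey). Filled points have an adjusted p below 0.05 (Abcc4, Reck and Cavin1), and the intervals of Flt1 and Tek alone among the blue points leave out zero.

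The 10 genes varied together only in part from mouse to mouse. Of their 45 pairs, 29 had a positive Pearson r over the 12 mice, with a median r of 0.133, and 0.184 after each group was centred on its mean. Ocln and Slc2a1 were the most closely related pair, with r = 0.863 (permutation p = 0.0003, adjusted over 45 pairs 0.0135) and Spearman's rho = 0.839 (permutation p = 0.00126, adjusted 0.0567). With each group centred, r was 0.865 (permutation p = 0.00078, adjusted 0.0351), and without the 2 mice with the most extreme Ocln values, CTRL 2 and CTRL 3, the pooled r was 0.771. Removing the length and GC trend of each library lowered r to 0.534 (permutation p = 0.0757, adjusted 0.218), and the part of that trend in the relation was not tested.

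Pecam1 and Cdh5, the 2 adhesion genes, had r = 0.685 (permutation p = 0.0132, adjusted 0.297), rho = 0.797 (permutation p = 0.00274, adjusted 0.0616) and r = 0.764 with groups centred (permutation p = 0.00978, adjusted 0.220). Their r was 0.696 without the 2 mice farthest from the Pecam1 median. With the length and GC trend removed it was 0.782 (permutation p = 0.00461, adjusted 0.139). Flt1 and Tek ran against each other, with r = −0.659 (permutation p = 0.0201, adjusted 0.302) and rho = −0.615 (permutation p = 0.0378, adjusted 0.568). Their r was −0.675 without the 2 mice with the most extreme Flt1 values. Within centred groups it was −0.372 (permutation p = 0.229). With the length and GC trend removed it was −0.696 pooled (permutation p = 0.0134, adjusted 0.188) and −0.590 centred (permutation p = 0.0529, adjusted 0.274). Abcb1a and Flt1 had r = 0.599 (permutation p = 0.0409, adjusted 0.414) and rho = 0.580 (permutation p = 0.0527, adjusted 0.593), with r = 0.507 without the 2 mice farthest from the Abcb1a median and 0.237 (permutation p = 0.457) with the length and GC trend removed. The r of 0.622 between Cldn5 and Tek (permutation p = 0.0464, adjusted 0.414, rho = 0.126 with permutation p = 0.702) rested on CTRL 3, as it was −0.01 without that mouse and −0.379 without CTRL 3 and DPAn-6 5. Only the Ocln and Slc2a1 pair passed adjustment over the 45.

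**Figure D4:**
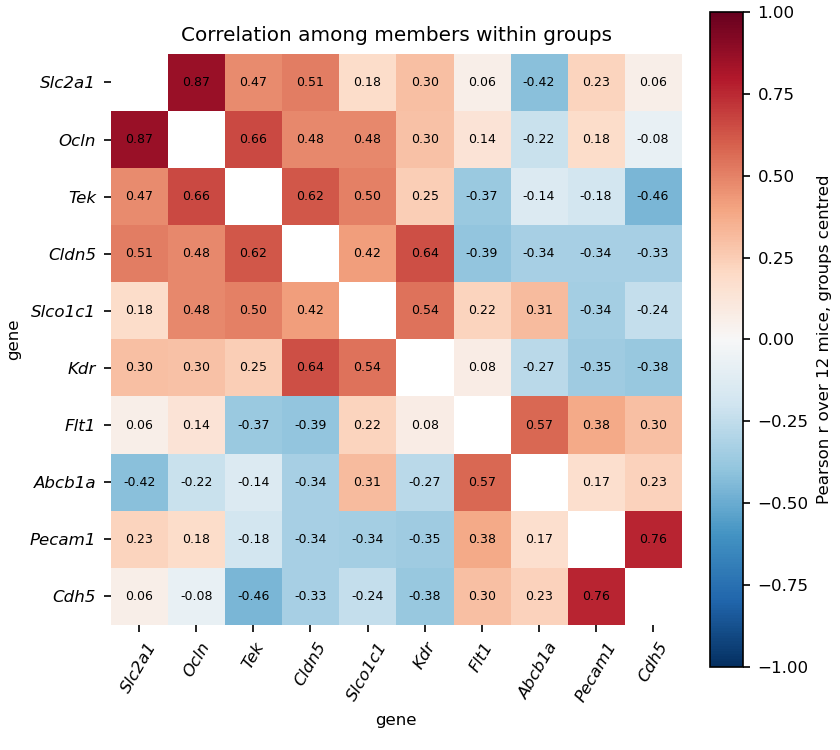
Pearson r between each pair of the 10 genes over 12 mice, after centring each group on its mean (red positive, blue negative). The darkest cells are Ocln with Slc2a1 (0.865) and Pecam1 with Cdh5 (0.764), and the lowest r is −0.456, between Tek and Cdh5.

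Among the other tested genes, those most like the mean of the 10 over the 12 mice, with groups centred, were Tet3 (r = 0.930), Lipe (0.909), Dzip1l (0.901), Impa2 (0.901) and Lrig3 (0.900). They were picked as the highest of all tested genes, so the r values describe the choice. The 10 genes themselves ran from r = 0.185 (Cdh5) to 0.808 (Ocln) with that mean, in which each of them takes part.

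Around these genes, 86 other genes of endothelium and barrier were listed in 5 groups, and 83 of them were tested. Of these, 3 were called, all lower in DPAn-6 (3.61%, beside 1.55% of all genes). Their median log2 fold change was −0.14, and 65 of 83 were lower, where 51.3% of all genes tested were lower. An unadjusted p below 0.05 was found in 22 (26.5%, beside 14.5%), 19 of them lower and 3 higher. The lists were described by these counts and not tested as sets. Aplnr, Sele and Selp had at most 5 counts in any mouse and were not tested.

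Cavin1, which builds the coat of caveolae, was the most clearly separated of the 83. It had 5.22 to 5.43 log2 CPM in CTRL (median 5.35) and 5.05, 4.89, 4.90, 4.99 and 5.04 in DPAn-6, with no overlap (log2 fold change −0.37, standard error 0.07, edgeR adjusted p = 0.0133). Reck, a cofactor of Wnt7 signalling at the barrier, had 4.03 to 4.23 log2 CPM in CTRL (median 4.16) and 3.97, 3.96, 3.76, 3.62 and 3.70 in DPAn-6 (log2 fold change −0.38, standard error 0.08, adjusted p = 0.0398). Abcc4, the efflux pump MRP4, had 4.47 to 4.98 log2 CPM in CTRL (median 4.67) and 4.29, 4.45, 4.29, 4.21 and 4.31 in DPAn-6 (log2 fold change −0.45, standard error 0.10, adjusted p = 0.0442). All 3 had every DPAn-6 mouse below every CTRL mouse. The calls were not equally firm: of 12 fits with 1 mouse left out, Cavin1 was called in 11, Abcc4 in 3 and Reck in 2. Without DPAn-6 3 none of the 83 was called (Cavin1 adjusted p = 0.0610), and without CTRL 3 there were 11 calls. The calls over all genes moved too, to 64 of 15877 without DPAn-6 3 and to 953 of 15616 without CTRL 3, beside 243 of 15688.

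By role, the junction and endothelial identity list had 18 of 23 genes lower and a median log2 fold change of −0.10. Its leading genes were Vwf, the clotting factor stored in endothelium (log2 fold change −0.60, standard error 0.17, adjusted p = 0.0862), and F11r, the junctional adhesion molecule JAM-A (−0.24, standard error 0.08, adjusted p = 0.177, no overlap between the groups). Without CTRL 3, Vwf was called (log2 fold change −0.67, adjusted p = 0.0137) and F11r was not (adjusted p = 0.0811). In the list of transporters and receptors, 12 of 20 were lower, with a median of −0.05. Log2 fold changes there ran from −0.45 to 0.52. That list held all 3 barrier list genes that were higher with an unadjusted p below 0.05. Slco2b1, an organic anion carrier, was lower there (−0.32, standard error 0.09, adjusted p = 0.0816), and was called without CTRL 3 (−0.34, adjusted p = 0.0152).

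All 14 tested genes of the VEGF and angiopoietin list had a log2 fold change below zero, with a median of −0.18 and 0 calls. The list also held Notch1, Dll4 and Apln, and left out the receptors described above. Those were Flt1 at −0.19, Kdr at −0.08 and Tek, which was higher, at 0.15. The leading genes of the list were Ptprb, the phosphatase VE-PTP that restrains TIE2 (−0.22, standard error 0.07, adjusted p = 0.121, no overlap), and Notch1 (−0.31, standard error 0.10, adjusted p = 0.129). Without CTRL 3 both were called, with adjusted p-values of 0.0477 for Ptprb and 0.0149 for Notch1. With the length and GC trend removed, Ptprb was at −0.047 with an edgeR unadjusted p of 0.355, and Notch1 at −0.19 with an adjusted p of 0.104. The Wnt list had 15 of 18 genes lower and a median of −0.21. Apcdd1, a Wnt target and inhibitor, was next to Reck in that list (−0.39, standard error 0.10, adjusted p = 0.0806), and was called without CTRL 3 (−0.36, adjusted p = 0.0349). In the list of caveolae and leukocyte adhesion, 6 of 8 tested genes were lower, with a median of −0.17. Its second gene was Cavin2 (−0.20, standard error 0.10, adjusted p = 0.372).

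**Figure D5:**
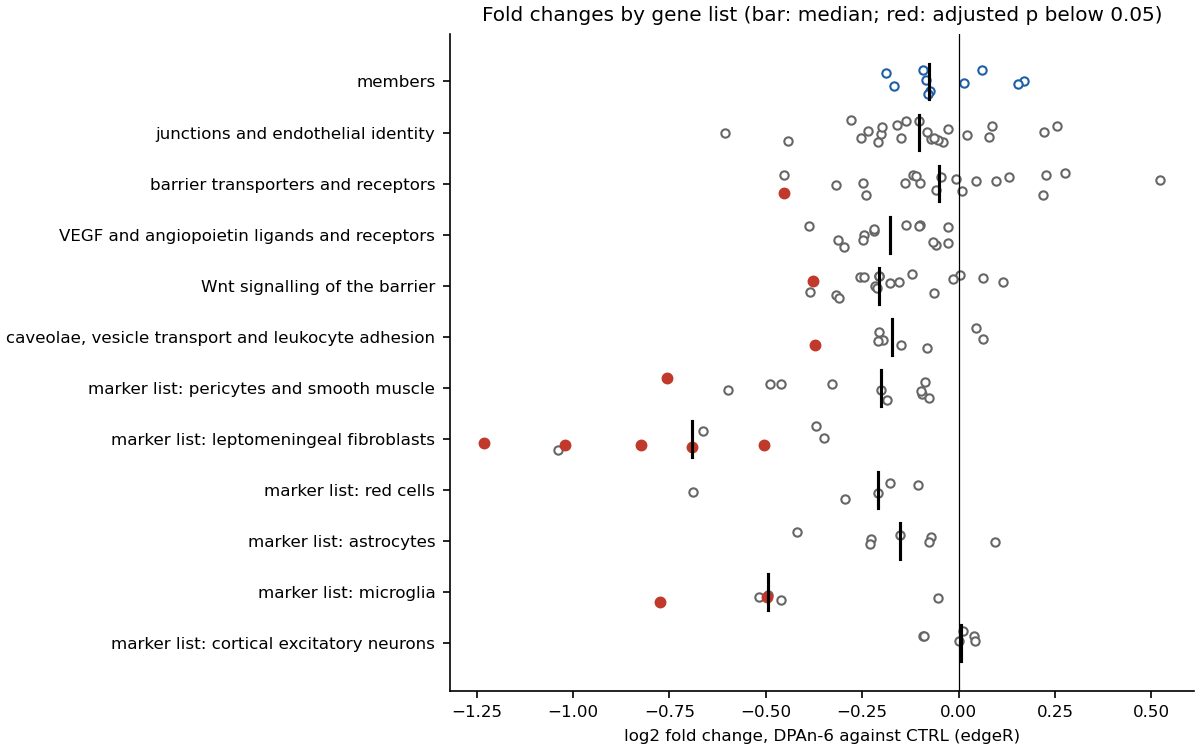
Log2 fold change of DPAn-6 against CTRL for each tested gene of the 10 described genes (blue), the 5 barrier lists and 6 marker lists of other cell types, with the median as a bar and genes with an adjusted p below 0.05 in red. The choroid plexus list is left out for its range. The 10 genes lie around zero, while all leptomeningeal and mural markers lie below it.

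Markers of several other cell types also differed between the groups. For the counts that follow, 1.55% of all genes tested were called and 51.3% were lower. The 11 markers of pericytes and smooth muscle summed to 382 to 412 CPM in CTRL and to 331 to 357 in DPAn-6. These sums did not overlap, but the mean log2 CPM of the list did, at 3.92 to 4.41 in CTRL and 3.78 to 4.08 in DPAn-6. All 11 were lower and 1 was called, Myh11 (log2 fold change −0.76, adjusted p = 0.00551). The leptomeningeal fibroblast list summed to 139 to 259 CPM in CTRL and 84.8 to 162 in DPAn-6, with 9 of 9 lower and 5 called. Microglial markers summed to 682 to 990 CPM and 518 to 681 CPM, with 6 of 6 lower and 2 called. Choroid plexus markers summed to 14.6 to 1763 CPM in CTRL (median 35.6) and 9.02 to 25.3 in DPAn-6 (median 11.5). They were led by Ttr (log2 fold change −6.01, adjusted p = 0.0553). Ttr spread widely in CTRL, from 2.59 to 10.6 log2 CPM, and overlapped the 0.87 to 3.88 of DPAn-6. Red cell markers summed to 8.02 to 22.6 and 5.43 to 30.8 CPM, and astrocyte markers to 6203 to 10381 and 5477 to 7050 CPM, with no gene called in either list. No listed marker was at 0 counts in all mice. Cavin1 and Reck are also expressed by cells outside endothelium, and the part that mural, leptomeningeal or choroid plexus cells had in these differences was not tested. With the leptomeningeal mean as covariate, the log2 fold changes were −0.26 for Cavin1, −0.22 for Reck and −0.48 for Abcc4, with 0 of the 83 called and 1 gene called over all 15688. With the mean of the pericyte and smooth muscle list as covariate, Cldn5 became the only one of the 10 to be called (log2 fold change 0.81, edgeR adjusted p = 0.0218), in a fit that called 3134 of all genes. In that fit the log2 fold changes were −0.38 for Cavin1 (adjusted p = 0.0181), −0.53 for Abcc4 (adjusted p = 0.0218) and −0.34 for Reck (adjusted p = 0.0503).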

How the data were processed

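Cortex RNA of 7 CTRL and 5 DPAn-6 mice was sequenced, with the mice grouped by their sample titles. The authors made poly(A) libraries, aligned them with STAR (2.5.3a in the submitters' processing notes) to GRCm38 with Ensembl genes, and deposited raw counts per gene with no normalization. From these counts, log2 CPM was computed with a pseudocount of 0.5 and the library total as scale. The quasi-likelihood test of edgeR 4.0.16 (R 4.3.3) was fitted without covariates after filterByExpr and TMM scaling, in place of the limma-voom of the study's methods, which was run as an alternative, and genes were called at an adjusted p below 0.05. For single genes, mean log2 CPM was permuted exactly over all splits of the mice (two-sided), and pairs of genes by 100000 permutations of mice, within groups where centred. Positions, exon lengths and names came from GENCODE M21 on GRCm38, which named 50339 of 50563 identifiers. Promoters came from RefSeq.

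The 10 genes, the gene lists and the tests were chosen with earlier results of these data known. From each barrier list the called genes and the 2 with the smallest p are named. Marker genes are named at the extremes of their list, and other genes if among the 5 most like the mean of the 10. Alternatives were DESeq2 1.42.0, limma-voom 3.58.1 with and without sample weights, other scalings and filters, covariates, single ages, leaving out each mouse, and a block for replicate number. Chosen after seeing the data were the length and GC trend (splines with 4 degrees of freedom each) and the leptomeningeal and mural covariates. The scripts were tested on simulated data. Libraries of a group differed by more than counting noise, so none was the same library sequenced again. That check cannot detect separate libraries made from the same mouse. The lowest member, Ocln, had 121 counts in 1 library, though its standard error of 0.10 was below the 0.19 of Cldn5.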

Additional observations from a re-analysis of the deposited data

Results flagged for a closer look

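In 40 checks of a group's highest or lowest mouse over the 10 genes and the 10 named list genes, 5 values, from 4 mice, lay far from the rest of their group, where about 2 are expected since such a check marks about 1 in 20 groups by chance. Cldn5 was at 3.48 log2 CPM in CTRL 3, with the other CTRL mice at 4.70 to 5.05, and Vwf was at 5.34 in the same mouse, with the others at 5.77 to 6.08. Cdh5 was at 4.45 log2 CPM in DPAn-6 4, with the other DPAn-6 mice at 4.65 to 4.68. Apcdd1 was at 4.64 log2 CPM in CTRL 5, with the others at 4.92 to 5.08. Cavin2 was at 3.65 log2 CPM in DPAn-6 1, the highest of its group, with the others at 3.28 to 3.38.

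The treatment difference of Slco2b1 differed between ages before adjustment, by 0.39 on the log2 scale (14-month minus 12-month, edgeR unadjusted p = 0.0311, adjusted p = 0.905).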

How the results depend on the processing

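Across 28 alternatives, 264 of 280 values of the 10 genes kept their direction and side of the threshold, 15 changed sign and 1 passed. Ocln had the lowest counts, and causes of the changes below were not tested unless stated. The count of the 10 genes called was 0 in every alternative but the pericyte and smooth muscle covariate, where it was 1 (Cldn5, log2 fold change 0.81, adjusted p = 0.0218) and the median log2 fold change was 0.076; that fit called 3134 of all genes, against 243. Sign changes were, as log2 fold changes, Ocln 0.035 with Ttr as covariate, Slco1c1 −0.020 in 14-month and Cldn5 −0.19 in 12-month mice, Cldn5 −0.044, Slco1c1 −0.028 and Cdh5 0.060 with the leptomeningeal covariate, and Ocln 0.061, Slc2a1 0.091, Pecam1 −0.055 and Kdr 0.11 with the pericyte and smooth muscle covariate. Leaving out 1 mouse gave Pecam1 −0.015 to 0.053. With the replicate block, Pecam1 was −0.0046 and Kdr 0.0036, and 0 barrier list genes were called. Same-numbered mice mostly did not deviate together (r −0.125 to 0.220, 1 of 5 over 0.1, 0 best with their own number). No pairing by number was seen, though such r values cannot exclude it. The 3 barrier list calls became 9 with DESeq2, 13 with sample weights, 1 without TMM, 1 without a filter, 0 with Ttr as covariate, 0 in 14-month mice, 6 in 12-month mice, 0 with the leptomeningeal and 13 with the pericyte and smooth muscle covariate, and 0 to 11 with 1 mouse left out. Over all genes 696 were called by DESeq2, 1267 with sample weights, 17 with Ttr, 9 in 14-month and 709 in 12-month mice, 69 with the block, 529 after removal of the length and GC trend and 64 to 953 with 1 mouse left out. The pairs of the 10 genes passing adjustment with groups centred were 0 in 14-month mice (8 mice) and 0 after the trend was removed, against 1.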
